A study of Mus musculus with 16 samples.

Results

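The Hox genes of the mouse were followed in spinal cord RNA from 16 animals and ordered by paralog number. Members were every symbol made of Hoxa, Hoxb, Hoxc or Hoxd and digits, which gave 39 of the 24411 gene symbols in the files, and no measured value entered the choice. Of the 39, 34 had a mean TPM (a level scaled for gene length and depth) above 1 in at least 1 condition and were tested, and the other 5 were Hoxb1, Hoxd12, Hoxa13, Hoxb13 and Hoxc13. All mice were female C57BL/6J. The 7 SCI + Atorvastatin and 7 SCI + Vehicle mice had a lateral compression injury at 12 wk of age, made with forceps that left a 0.25 mm gap at vertebral levels T8 and T9, and were then injected each day from 2 wk after injury for 4 wk. Atorvastatin, an inhibitor of cholesterol synthesis, was given at 10 mg/kg in a carrier of DMSO, polyethylene glycol, Tween and saline, and the vehicle mice received the carrier alone. The 2 Uninjured Control mice had neither injury nor treatment, so injury, surgery and injections cannot be told apart in any difference from them. At 6 wk after injury 5 mm of cord around the injury, or the matching piece of uninjured cord, was taken after perfusion, with 1 mouse per library. The labels place this piece at T9 to T10 and the injury at T8 to T9, and the study's text differs from the labels on the age of the controls, since the labels raise all mice to 12 wk and the text describes the controls as younger at collection than the SCI mice. Age thus cannot be told apart from injury either, and no measurement of the level of each piece was analysed here. Mice are called biological replicates in the labels, and p-values rest on the spread between these mice.

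Hox genes encode homeodomain transcription factors that are carried in 4 clusters, Hoxa to Hoxd. Genes that hold the same place in different clusters share a paralog number from 1 to 13. In the embryo low numbers are switched on early and from the hindbrain backwards, and high numbers later and nearer the tail, so that a cell's set of Hox genes marks its level along the body. In the cord, paralogs 8 and 9 are linked to thoracic levels, paralog 10 to lumbar levels and paralogs 11 to 13 to the most caudal levels, and much of this pattern is kept in adult cells. Hoxc9 is known for setting the thoracic motor columns, Hoxc6 for the motor neurons of the forelimb, and Hoxa10, Hoxc10 and Hoxd10 for those of the hindlimb. Hox proteins bind DNA together with cofactors of the Pbx and Meis families.

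Hox transcripts of paralogs 2 to 10 were found in all 3 conditions, and those of paralogs 11 to 13 gave counts in 9 of 16 mice, with over 16 counts in 3 of them. Levels rose from the first paralogs to a plateau at paralogs 6 to 8 and ended after paralog 10. In SCI + Vehicle mice the summed TPM was 2.66 ± 1.57 (SD, n = 7) for paralog 1, 65.4 ± 12.7 for paralog 5, 181 ± 26.9 for paralog 8, 138 ± 19.1 for paralog 9, 117 ± 19.8 for paralog 10 and 0.631 ± 1.64 for paralog 11. The 2 control mice had 144.82 and 235.73 TPM for paralog 8, 160.27 and 134.11 for paralog 9, and 259.46 and 137.08 for paralog 10. In all 14 SCI mice the sums for paralogs 9 and 10 lay below that for paralog 8, whereas in control replicate 1 paralog 10 was the highest of all.

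By the mean over the 16 mice, the leading members were Hoxa7 (93.2 TPM), Hoxb6 (87.3 TPM), Hoxc10 (85.1 TPM) and Hoxd8 (41.1 TPM) in their own clusters. The Hoxb cluster, 10 genes on chromosome 11 of GRCm38 from 96194316 to 96368254, held the most Hox RNA, with 370 ± 58.7 TPM in SCI + Vehicle, 338 ± 45.3 in SCI + Atorvastatin (SD, n = 7 each) and 368.14 and 439.41 TPM in the 2 controls. The Hoxc cluster on chromosome 15 had 250 ± 27.9 and 242 ± 39.7 TPM and the Hoxa cluster on chromosome 6 had 214 ± 19.9 and 209 ± 29.2 TPM. The Hoxd cluster on chromosome 2, 9 genes from 74668225 to 74765142, was the lowest, with 98.0 ± 14.7 and 89.5 ± 7.26 TPM. The 2 controls held 295.66 and 309.73 TPM from Hoxa, 188.21 and 298.39 from Hoxc and 114.54 and 151.15 from Hoxd.

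**Figure D1:**
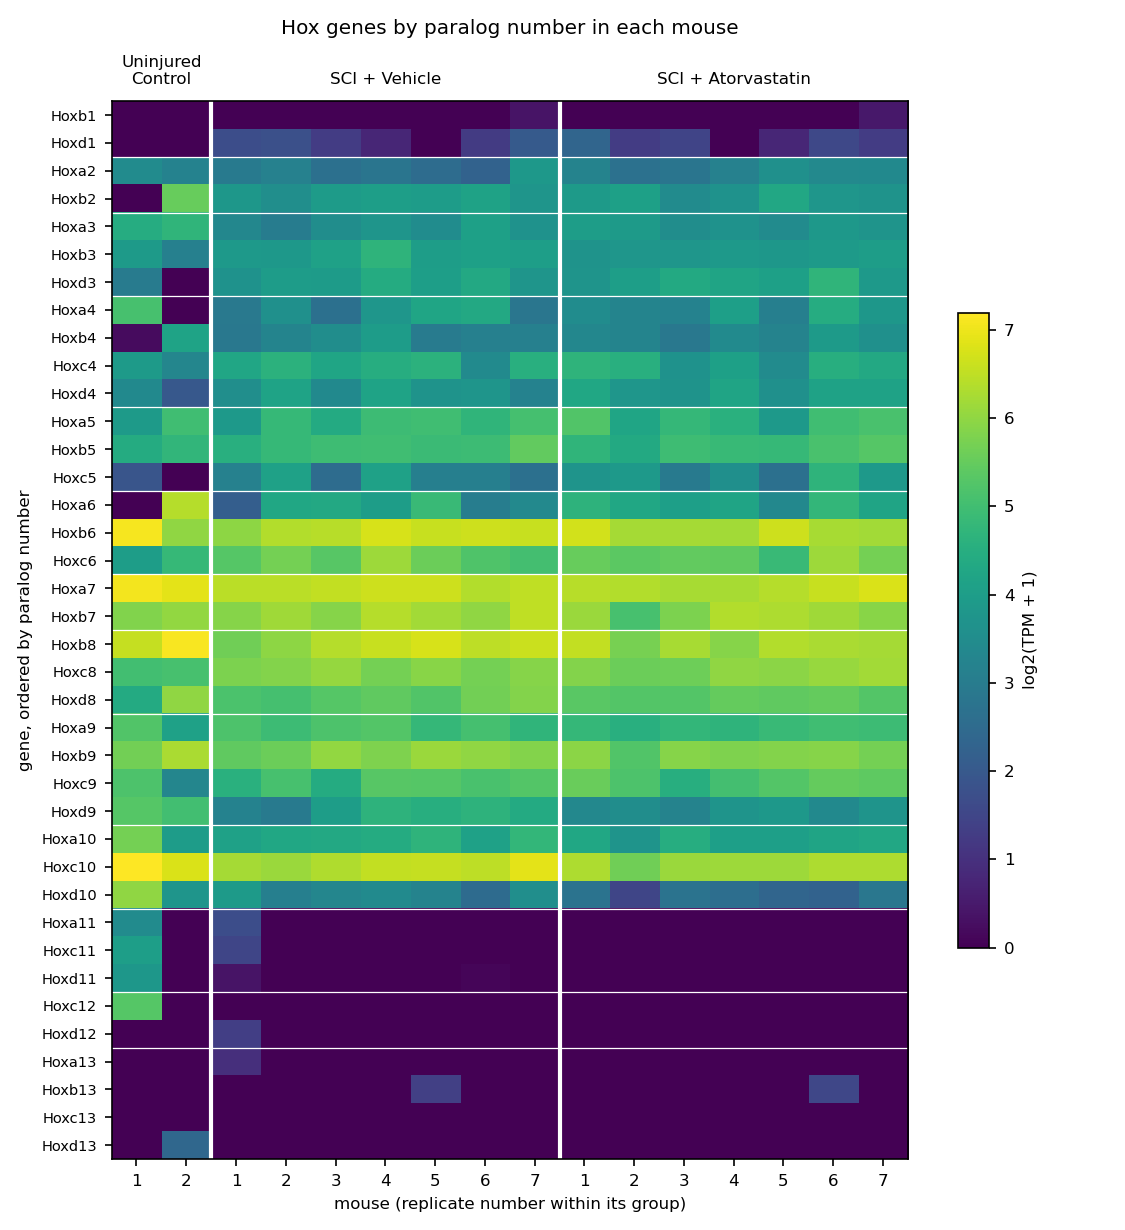
Heat map of log2(TPM + 1) for Hox genes (rows, by paralog number) in the 16 mice (columns, by group and replicate number). The rows of paralogs 11 to 13 are at or near 0 except in Uninjured Control replicates 1 and 2, SCI + Vehicle replicates 1 and 5 and SCI + Atorvastatin replicate 6.

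Several features of the libraries touch these genes. The libraries held 14823292 to 25579826 counts on genes, and a count of 0 allows up to 3 counts, or 0.117 to 0.202 CPM (counts scaled to the size of the library), which covers counting error only. The 2 control libraries had counts in 12732 and 12356 genes against 16399 to 19338 in SCI mice, and 13.9% and 17.6% of 3245 genes of middle abundance were at 0 in them, against at most 0.247% in any SCI mouse. Below paralog 11, Hoxb2, Hoxa4 and Hoxc5 were at 0 in 1 control mouse each and had 536, 390 and 60 counts in the other. The liver transcripts Alb, Apoa1, Apoa2, Ttr and Serpina1c summed to 3774 and 594 CPM in the controls and to at most 6.35 CPM in SCI mice, and skeletal muscle markers reached 2822 CPM in SCI + Atorvastatin replicate 2 and 534 CPM in SCI + Vehicle replicate 3 against at most 153 CPM in other mice. Neuron, oligodendrocyte and astrocyte markers were present in every library.

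TPM and counts differed for some genes, mostly in the controls. Of 52 control values with at least 30 counts, 5 had a TPM more than 2-fold away from what the counts gave, against 2 of 196 in SCI + Vehicle and 0 of 193 in SCI + Atorvastatin. Hoxd3 had 642 counts and a TPM of 0 in control replicate 2, Hoxa6 had 76 counts and a TPM of 0 in control replicate 1, and Hoxd10 had 977 counts with 63.00 TPM in one control but 788 counts with 12.56 TPM in the other. By the RefSeq gene ranges 6 pairs of Hox genes overlap on the genome, among them Hoxd10 with Hoxd11 (2744 bases), Hoxd3 with Hoxd4 (7183 bases) and Hoxa3 with Hoxa6 (3815 bases). Of the 7 values that disagreed, 5 belonged to the 10 genes in these pairs. The library kit marks strand, and how reads of overlapping genes were divided was not stated in the sources used here.

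Against Uninjured Control, the Hox genes that edgeR called lower in SCI cord lay from paralog 7 upwards and those that it called higher lay from paralog 8 downwards. DESeq2, and limma on log2(TPM + 1), also called Hoxa3 lower in both SCI groups. A gene was called at a change above 25% (an absolute log2 fold change above 0.322) and an adjusted p below 0.05 in edgeR. In SCI + Vehicle 10 of the 34 members were called lower (Hoxa7, Hoxb8, Hoxd9, Hoxa10, Hoxc10, Hoxd10, Hoxc11, Hoxd11, Hoxc12 and Hoxd13), where 9.91% of all genes tested were, and 3 were called higher (Hoxd1, Hoxd4 and Hoxc8), where 19.9% of all genes were. In SCI + Atorvastatin 12 were called lower, the same 10 with Hoxb9 and Hoxa11, against 14% of all genes, and 4 were called higher, the same 3 among them, against 24.9% of all genes. Of the members called lower, Hoxa11, Hoxc11, Hoxd11, Hoxc12 and Hoxd13 passed the filter on low values through the controls alone, and Hoxd1 passed it through the SCI groups alone, so these had to differ. Without them 6 calls lower with vehicle and 7 with atorvastatin remain. Both comparisons use the same 2 control mice, so their likeness is no second observation. With limma's voom and a weight for each group, which lets the controls spread more than the SCI mice, Hoxd10 was the only Hox gene called in either comparison, and with limma on log2(TPM + 1) the lower calls fell to 2 (Hoxa3 and Hoxa7) with vehicle and 6 with atorvastatin.

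Over paralogs 1 to 10, the median fold change was lowest in paralog 10. In SCI + Vehicle the median log2 fold change was 0.22 over the 14 tested members of paralogs 1 to 5, -0.28 over 8 members of paralogs 6 to 8, -0.27 over 4 members of paralog 9 and -1.05 over 3 members of paralog 10, beside 0.17 over all genes tested. In SCI + Atorvastatin these medians were 0.09, -0.42, -0.39 and -1.26, beside 0.21 over all genes. Both paralog 10 medians are the value of Hoxa10 alone. Without control replicate 1, the log2 fold change of Hoxa10 was 0.02 with vehicle and -0.19 with atorvastatin. No median is given for paralogs 11 to 13, since the filter kept the 5 members found in a control and left out the 4 that were at 0 in both controls (Hoxd12, Hoxa13, Hoxb13 and Hoxc13).

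**Figure D2:**
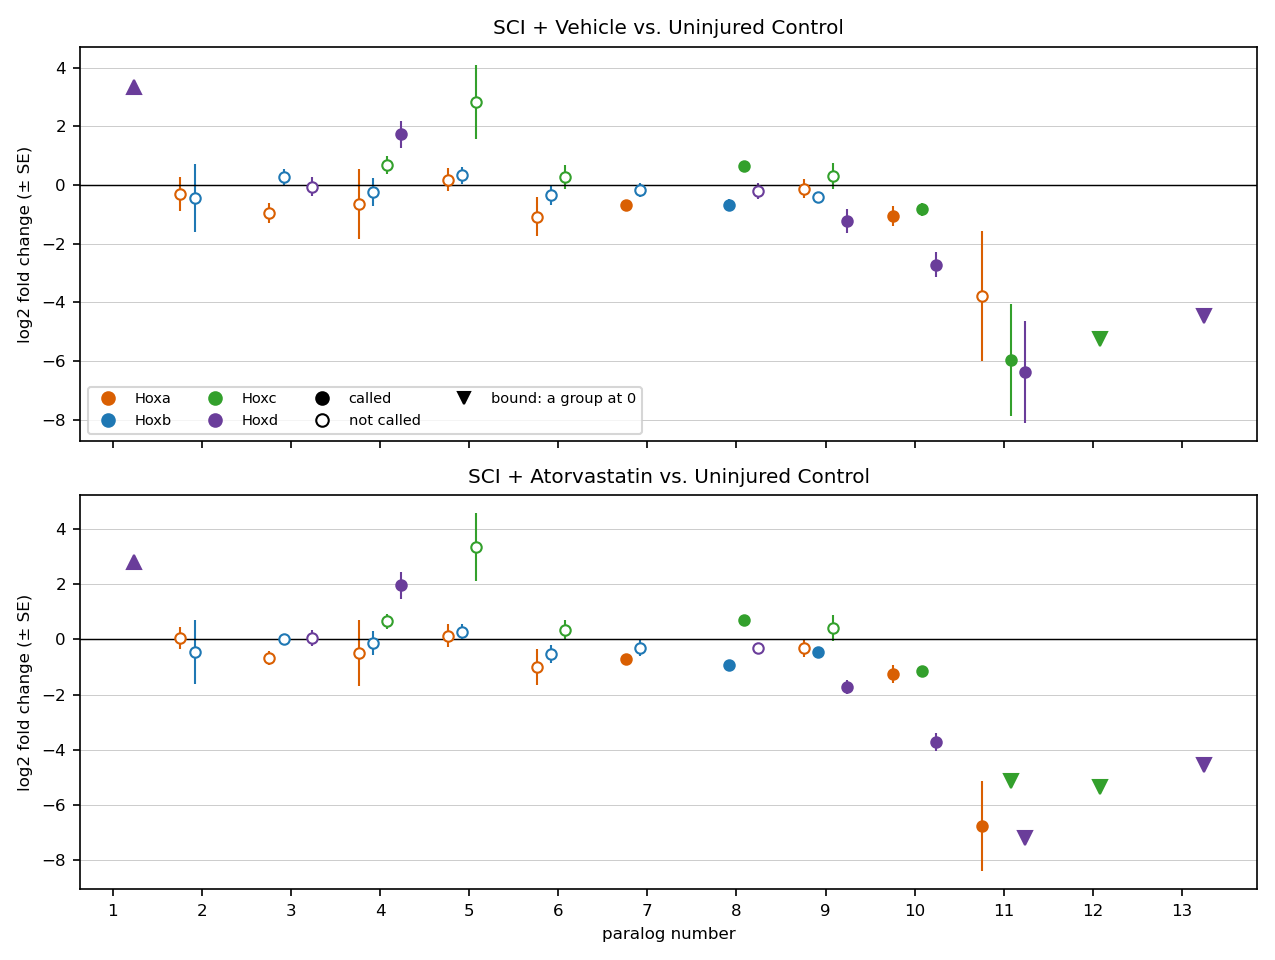
Log2 fold change (± SE) of tested Hox genes against Uninjured Control by paralog number, coloured by cluster, with filled symbols for called genes. Triangles are bounds for genes with a group at 0. From paralog 9 upwards the Hoxd members lie below 0 in both panels, and the values at paralogs 11 to 13 come from 1 control mouse each.

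On CPM after TMM scaling, both controls lay above all 14 SCI mice in 6 Hox genes, Hoxa3, Hoxa7, Hoxb8, Hoxb9, Hoxd9 and Hoxd10, and 9.89% of all genes tested did so. Both lay below all SCI mice in 4, Hoxc4, Hoxd4, Hoxc5 and Hoxc8, and 22.8% of all genes did so. On TPM the controls and SCI mice overlapped in 5 of these 10 genes, Hoxb8, Hoxb9, Hoxd10, Hoxc4 and Hoxd4.

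Hoxd10, one of the hindlimb-level genes, showed the greatest change among members with counts in every mouse. Its level after TMM scaling was 49.0 and 35.7 CPM in the control mice. In SCI + Vehicle it was 11.6, 4.83, 5.37, 8.37, 4.79, 2.93 and 7.39 CPM in replicates 1 to 7, and in SCI + Atorvastatin 3.57, 2.03, 3.82, 4.07, 2.60, 2.14 and 4.22 CPM. Every SCI mouse was thus far below both controls, and 6 of 7 vehicle mice were above all atorvastatin mice. The log2 fold change against control was -2.72 (SE 0.427, adjusted p = 0.00113) with vehicle and -3.71 (SE 0.329, adjusted p = 3.58e-05) with atorvastatin by edgeR. On log2(TPM + 1), where control replicate 2 is at 12.56 TPM and SCI + Vehicle replicate 1 at 14.20 TPM, the groups overlapped, and limma gave -1.59 (adjusted p = 0.0503) and -2.44 (adjusted p = 0.00685).

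Hoxc10 and Hoxa10, the other hindlimb-level genes, were lower by smaller amounts. Hoxc10 had 130.8 and 82.9 CPM in the controls, 60.6 ± 13.03 CPM in SCI + Vehicle and 48.0 ± 6.01 CPM in SCI + Atorvastatin (SD, n = 7 each), with log2 fold changes of -0.83 (SE 0.218, adjusted p = 0.0158) and -1.14 (SE 0.182, adjusted p = 0.000806) from edgeR. The highest vehicle mouse, replicate 7 with 86.1 CPM, lay above the lower control, and without control replicate 1 the vehicle call was lost (log2 fold change -0.46, adjusted p = 0.144). Hoxa10 had 65.3 and 20.4 CPM in the controls, 17.01 to 27.1 CPM in vehicle mice and 14.4 to 20.6 CPM in atorvastatin mice. Control replicate 1 lay far above every other mouse and replicate 2 within the vehicle range. Hoxa10 was called lower in both SCI groups (log2 fold change -1.05, adjusted p = 0.0386, and -1.26, adjusted p = 0.0128). Without control replicate 1 the log2 fold change was 0.02 with vehicle (adjusted p = 0.968) and -0.19 with atorvastatin (adjusted p = 0.521), and without control replicate 2 it was -1.66 with vehicle. The Hoxa10 vehicle call was also lost when any of SCI + Vehicle replicates 1 to 6 was left out, with adjusted p between 0.0624 and 0.0702.

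Within the Hoxd cluster, the neighbours Hoxd8, Hoxd9 and Hoxd10 had fold changes of different size, and the difference between the genes was not tested. Hoxd8, a gene of the trunk, had 35.9 and 50.2 CPM in controls, 28.6 to 57.7 CPM in vehicle and 31.5 to 36.7 CPM in atorvastatin mice, with no call (log2 fold change -0.21, adjusted p = 0.605, and -0.30, adjusted p = 0.149, by edgeR). Hoxd9 had 32.7 and 25.4 CPM in the controls and no more than 16.8 CPM in any SCI mouse. Its log2 fold change was -1.21 (SE 0.412, adjusted p = 0.0475) with vehicle and -1.73 (SE 0.259, adjusted p = 0.000578) with atorvastatin. The vehicle call is at the limit, since leaving out any mouse but control replicate 2 brought the adjusted p to between 0.0547 and 0.0905. Read as ratios of counts, which depth cannot alter, Hoxd10 to Hoxd8 was 1.36 and 0.711 in the controls, 0.0698 to 0.362 in vehicle mice and 0.0599 to 0.134 in atorvastatin mice. The Hoxd9 to Hoxd8 ratio was 0.911 and 0.505 against 0.189 to 0.537 and 0.186 to 0.327, so that here 1 vehicle mouse overlapped the controls. On TPM the Hoxd10 to Hoxd8 ratio overlapped as well. Hoxd10 and Hoxd8 were at 12.56 and 63.24 TPM in control replicate 2 and at 14.20 and 34.62 TPM in SCI + Vehicle replicate 1. The Hoxd8 TPM of control replicate 1, 19.97, was among the values more than 2-fold away from their counts.

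The promoter windows of these 3 neighbours (250 bases before to 50 after the start, plus strand of chromosome 2, RefSeq on GRCm38.p6) are shown because the genes lie side by side and only Hoxd9 and Hoxd10 were called. They lie at chr2:74704365-74704664 for Hoxd8, chr2:74697513-74697812 for Hoxd9 and chr2:74691641-74691940 for Hoxd10. The Hoxd10 window lies inside the gene range used for the overlaps, which begins at 74684273, so its start is not that of the range. Capitals mark CG dinucleotides, the sites that cytosine methylation can use.
Hoxd8: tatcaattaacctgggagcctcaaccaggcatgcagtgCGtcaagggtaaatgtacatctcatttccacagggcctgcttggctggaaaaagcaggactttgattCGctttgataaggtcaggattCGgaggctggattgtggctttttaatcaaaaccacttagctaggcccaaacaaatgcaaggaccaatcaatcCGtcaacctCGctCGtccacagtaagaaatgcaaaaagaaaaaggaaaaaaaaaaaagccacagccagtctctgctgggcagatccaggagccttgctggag
Hoxd9: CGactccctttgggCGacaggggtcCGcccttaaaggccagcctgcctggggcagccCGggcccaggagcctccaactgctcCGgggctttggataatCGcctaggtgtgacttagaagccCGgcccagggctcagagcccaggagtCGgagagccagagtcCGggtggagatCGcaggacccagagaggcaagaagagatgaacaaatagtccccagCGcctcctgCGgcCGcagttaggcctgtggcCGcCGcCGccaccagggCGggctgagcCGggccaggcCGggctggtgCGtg
Hoxd10: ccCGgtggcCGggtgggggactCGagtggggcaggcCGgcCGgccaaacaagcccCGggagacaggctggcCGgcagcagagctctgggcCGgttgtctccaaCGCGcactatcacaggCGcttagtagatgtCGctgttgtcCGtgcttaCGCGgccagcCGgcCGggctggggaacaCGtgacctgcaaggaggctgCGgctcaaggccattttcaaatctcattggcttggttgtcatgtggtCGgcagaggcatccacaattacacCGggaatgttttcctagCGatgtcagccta
The windows of Hoxd9 and Hoxd10 held 20 and 22 CG dinucleotides, and that of Hoxd8 held 6. The median was 14.5 over 24 Hox windows of 22 genes and 7 over 32851 windows of all genes. Whether CG counts go with the calls was not tested. TTTATG, a site bound by Cdx factors, was searched on both strands and found in 20.8% of the Hox windows (5 of 24, for Hoxd3, Hoxd4, Hoxa7, Hoxb8 and Hoxd11) and 11.9% of all windows. TGATNNAT, a site of Hox and Pbx pairs, was found in 16.7% (4 of 24, for Hoxb1, Hoxa2, Hoxb8 and Hoxd11) and 8.85%. Neither set of letters occurs in the 3 windows shown.

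The other thoracic-level members, Hoxa9, Hoxb9 and Hoxc9, showed smaller differences. Hoxc9, the gene of the thoracic motor columns, had 32.8 and 6.48 CPM in the controls, 19.3 to 28.4 CPM in vehicle and 17.3 to 31.0 CPM in atorvastatin mice, and all SCI mice fell between the 2 controls. Hoxa9 likewise had 60.3 and 21.9 CPM in controls with every SCI mouse between them. Hoxb9 had 68.1 and 82.6 CPM in the controls against 44.5 to 63.6 and 40.9 to 60.6 CPM, and was called with atorvastatin (log2 fold change -0.45, SE 0.163, adjusted p = 0.0489 by edgeR) but not with vehicle (-0.42, SE 0.171, adjusted p = 0.0859). The atorvastatin call was lost when any mouse other than SCI + Atorvastatin replicate 2 or control replicate 1 was left out, with adjusted p between 0.0551 and 0.159. The 2 fold changes differ by less than either error.

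Paralogs 6 to 8, which mark the trunk, moved in both directions. Hoxa7 was lower in both SCI groups, with 115 and 129 CPM in controls against 68.8 to 93.8 and 63.7 to 88.3 CPM (log2 fold change -0.68, SE 0.128, adjusted p = 0.00312, and -0.72, SE 0.127, adjusted p = 0.00149). Hoxb8 was lower as well, with 184 and 180 CPM in controls, 74.1 to 145 CPM in vehicle and 77.0 to 114 CPM in atorvastatin mice (-0.67, SE 0.202, adjusted p = 0.0296, and -0.92, SE 0.146, adjusted p = 0.000779). Its vehicle call was lost without SCI + Vehicle replicate 2, SCI + Vehicle replicate 3 or control replicate 1 (adjusted p = 0.0613, 0.0643 and 0.0536). Hoxc8 went the other way, from 43.5 and 33.6 CPM in controls to 54.3 to 66.8 and 51.6 to 76.3 CPM, and was called higher (0.65, SE 0.156, adjusted p = 0.0103, and 0.71, SE 0.188, adjusted p = 0.0130). On CPM neither Hoxb8 nor Hoxc8 overlapped between controls and SCI mice. On TPM Hoxb8 did, with 93.45 in control replicate 1 against up to 106.54 in SCI mice, and limma on log2(TPM + 1) did not call it with vehicle (adjusted p = 0.214). The ratio of Hoxc10 to Hoxc8 counts, from the same cluster with Hoxc9 between them, was 3.01 and 2.47 in controls. It was 0.774 to 1.29 with vehicle and 0.672 to 0.959 with atorvastatin. The ratio of Hoxa10 to Hoxa7 counts was 0.566 and 0.158 in controls, 0.240 to 0.318 with vehicle and 0.206 to 0.305 with atorvastatin. For that ratio the controls thus lay on both sides of all SCI mice. Hoxb6, the leading Hoxb gene, had 87.6 and 27.6 CPM in controls and 34.3 to 59.9 CPM in all SCI mice, and was not called. The other members of this group, Hoxa6, Hoxc6 and Hoxb7, were not called either, and Hoxa6 had 3.82 and 47.3 CPM in the 2 controls, with every SCI mouse between them.

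**Figure D3:**
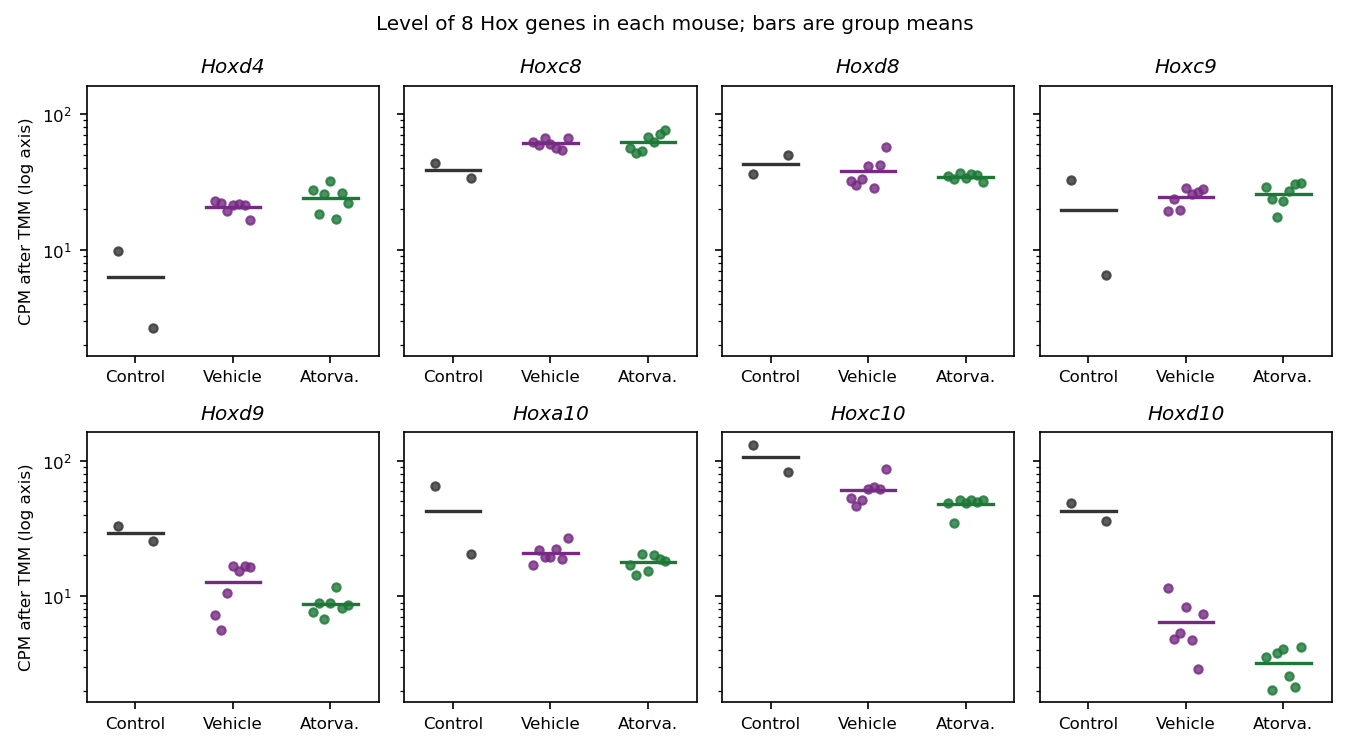
CPM after TMM scaling (log axis) of 8 Hox genes in each mouse, with bars for group means (Control, n = 2, Vehicle and Atorva., n = 7). Hoxd9 and Hoxd10 points of SCI mice lie below both controls, Hoxd4 and Hoxc8 points above them, and control mice bracket all SCI mice in Hoxc9.

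Among paralogs 1 to 5, which mark the hindbrain and neck, edgeR called no member lower. Hoxd4 was higher, with 9.84 and 2.67 CPM in the controls, 16.7 to 23.0 CPM in vehicle and 16.9 to 32.3 CPM in atorvastatin mice (log2 fold change 1.73, SE 0.456, adjusted p = 0.0164, and 1.96, SE 0.485, adjusted p = 0.00923). The size of this change rested on the controls, at 2.94 and 1.06 with vehicle and 3.19 and 1.299 with atorvastatin without control replicate 1 and 2. Hoxd4 overlaps Hoxd3, which had 16.5 and 29.1 CPM in controls and was not called (-0.06 and 0.04). On CPM Hoxc4 and Hoxc5 were also lower in both controls than in any SCI mouse, but missed the limit in edgeR (Hoxc5 3.35, SE 1.23, adjusted p = 0.0540 with atorvastatin). Hoxd1 had 0 counts in both controls, 6 to 75 counts in SCI + Vehicle mice and 0 to 60 counts in SCI + Atorvastatin mice. With each control 0 set to 3 counts, the mean of Hoxd1 was at least 10.04-fold higher in SCI + Vehicle and at least 6.94-fold higher in SCI + Atorvastatin. Single mice did not all reach these folds, and 1 SCI + Atorvastatin mouse was at 0 like the controls. These bounds cover counting error only, and the controls were at 0 in many genes of middle abundance. The Hoxd1 call with atorvastatin was lost without SCI + Atorvastatin replicate 2, 3, 6 or 7 or either control (adjusted p between 0.0504 and 0.0567). Hoxa3 had 21.8 and 18.8 CPM in controls and 8.02 to 16.4 CPM in SCI mice, with adjusted p = 0.0599 and 0.0580. Hoxb1, a hindbrain gene, was not tested and reached 10 counts at most in any mouse.

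The caudal paralogs 11 to 13 were found in 1 control mouse at a time. Control replicate 1 had 187 counts of Hoxa11, 186 of Hoxc11, 776 of Hoxd11 and 216 of Hoxc12, all of which were at 0 in replicate 2, and replicate 2 had 137 counts of Hoxd13, which was at 0 in replicate 1. In the 7 SCI + Atorvastatin mice the 9 genes of these paralogs gave 0 to 14 counts in all per mouse. The calls of Hoxc11, Hoxd11, Hoxc12, Hoxd13 and, with atorvastatin, Hoxa11 therefore each rest on 1 control library and were lost without it. The Hoxc11, Hoxc12 and Hoxd13 calls lay close to the limit as well, and leaving out any SCI + Vehicle mouse ended all 3 (adjusted p between 0.0521 and 0.0713). Leaving out any SCI + Atorvastatin mouse ended those of Hoxc11 and Hoxd13 (0.0513 to 0.0581), and any but replicate 2 that of Hoxc12 (0.0519 to 0.0539). Against the limit of 3 counts per library, the control mean of Hoxd11 was at least 146-fold higher than in SCI + Atorvastatin, that of Hoxc12 at least 40.7-fold and that of Hoxd13 at least 23.3-fold. Against SCI + Vehicle, the control means of Hoxc12 and Hoxd13 were at least 38.4-fold and 22.0-fold higher. In each of these genes 1 control was at 0 like the SCI mice compared, so the folds hold for the control mean only. The genes passed the filter through the controls alone, and these bounds cover counting error only.

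SCI + Vehicle replicate 1 was the exception among injured mice. It held 178 counts of paralogs 11 to 13 from 7 genes (Hoxa11 54, Hoxc11 11, Hoxd11 27, Hoxd12 31, Hoxa13 25, Hoxb13 19 and Hoxc13 11), and the other 6 vehicle mice held 0 to 16. It also had counts of 37 Hox genes against 28 to 31 in the other SCI mice, the highest Hoxd10 of any SCI mouse, and the most genes with counts of any library (19338). Noncoding genes at the caudal ends behaved alike in it, with Hotair, from the Hoxc cluster, at 2.77 CPM against at most 0.411 in other mice, and Hoxa11os, antisense to Hoxa11, at 2.65 CPM against 0 in other SCI mice. In the controls Hoxa11os was at 8.34 CPM in replicate 2, which had no Hoxa11, and at 0 in replicate 1, which had. Without SCI + Vehicle replicate 1, Hoxd10 stayed lower than control (log2 fold change -2.93, adjusted p = 0.00101 by edgeR).

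The share of the summed Hox TPM that came from paralogs 10 to 13 was taken per mouse as a description. It was 29.8% and 13.6% in the controls, 11.01% to 15.2% in SCI + Vehicle (12.8% ± 1.65, SD, n = 7) and 8.63% to 12.0% in SCI + Atorvastatin (10.5% ± 1.02, SD, n = 7). On counts, which are not scaled for length, it was 27.0% and 14.5%, 10.9% ± 1.33 and 9.08% ± 0.810. On TPM the lower control thus lay within the vehicle range, and on counts both controls lay above all SCI mice. The 2 vehicle mice with the highest share were replicate 7 (15.2%) and replicate 1 (14.9%).

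**Figure D4:**
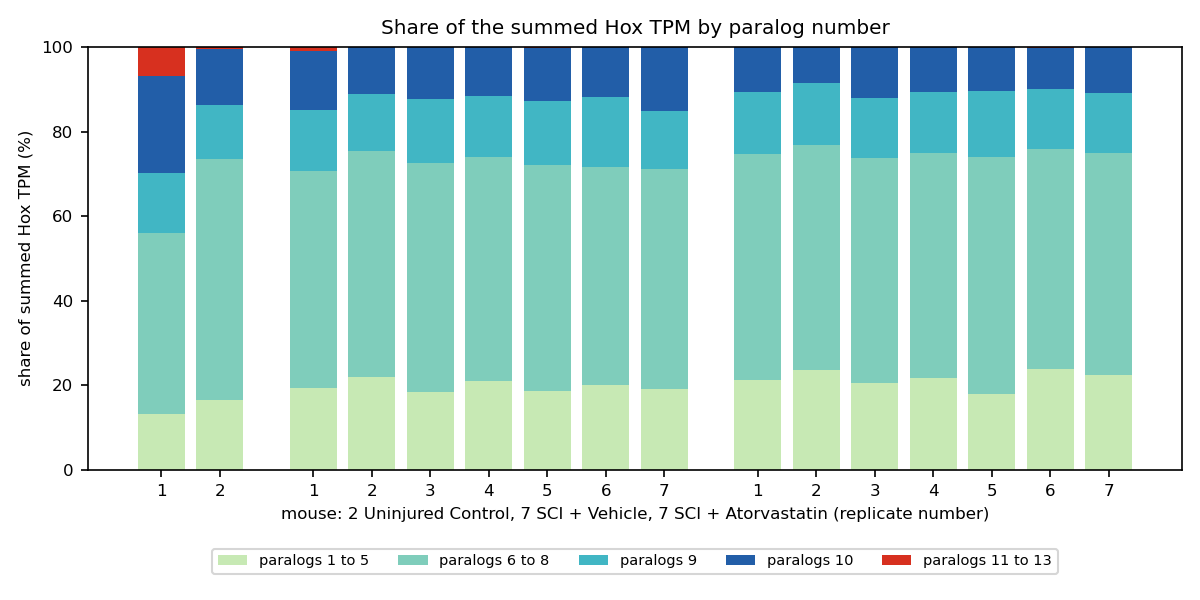
Stacked bars of the share (%) of the summed Hox TPM held by paralogs 1 to 5, 6 to 8, 9, 10 and 11 to 13 in each mouse. Uninjured Control replicate 1 has the largest part from paralogs 10 to 13 (29.8%), and the 7 SCI + Atorvastatin mice run from 8.63% to 12.0%.

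SCI + Atorvastatin and SCI + Vehicle were compared to ask whether treatment moved these genes in injured cord. No Hox gene passed the limit for this pair, an unadjusted p below 0.001 with a change above 25% in edgeR, which 0.0870% of all genes passed as higher and 0.0186% as lower, and DESeq2 called none either. At an unadjusted p below 0.05 there were 5 of 34 Hox genes (Hoxb8, Hoxd9, Hoxc10, Hoxd10 and Hoxd11), where 7.03% of all genes had it, and all 5 were lower with atorvastatin. None of them passed an adjusted p of 0.05. The median log2 fold change was 0.01 over paralogs 1 to 5, -0.09 over 6 to 8, -0.14 over paralog 9 and -0.33 over paralog 10, beside -0.00 over all genes.

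The 4 of these genes with counts in every mouse were of paralogs 8 to 10. Hoxd10 was 3.21 ± 0.928 CPM with atorvastatin and 6.47 ± 2.89 CPM with vehicle (SD, n = 7 each), with a log2 fold change of -1.01 (SE 0.306, adjusted p = 0.680 by edgeR). Without SCI + Vehicle replicate 1 it was -0.80, and without replicate 6, the lowest vehicle mouse, it was -1.14 and passed the unadjusted limit (adjusted p = 0.642). Hoxc10 was 48.0 ± 6.01 against 60.6 ± 13.03 CPM (-0.33, SE 0.122, adjusted p = 0.680), with SCI + Atorvastatin replicate 2 lowest at 34.7 CPM and SCI + Vehicle replicate 7 highest. Hoxd9 was 8.70 ± 1.54 against 12.7 ± 4.79 CPM (-0.54, SE 0.228, adjusted p = 0.692) and Hoxb8 95.3 ± 14.1 against 115 ± 25.3 CPM (-0.28, SE 0.128, adjusted p = 0.706). In each of the 4 the groups overlapped, and in each the vehicle mice were the more spread. Hoxd11 was at 0 in all atorvastatin mice and had 27, 5, 2 and 3 counts in 4 vehicle mice, so 3 of these 4 held 5 counts or fewer. Hoxc8 and Hoxc9, for contrast, differed by 0.04 (SE 0.0946) and 0.09 (SE 0.138).

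**Figure D5:**
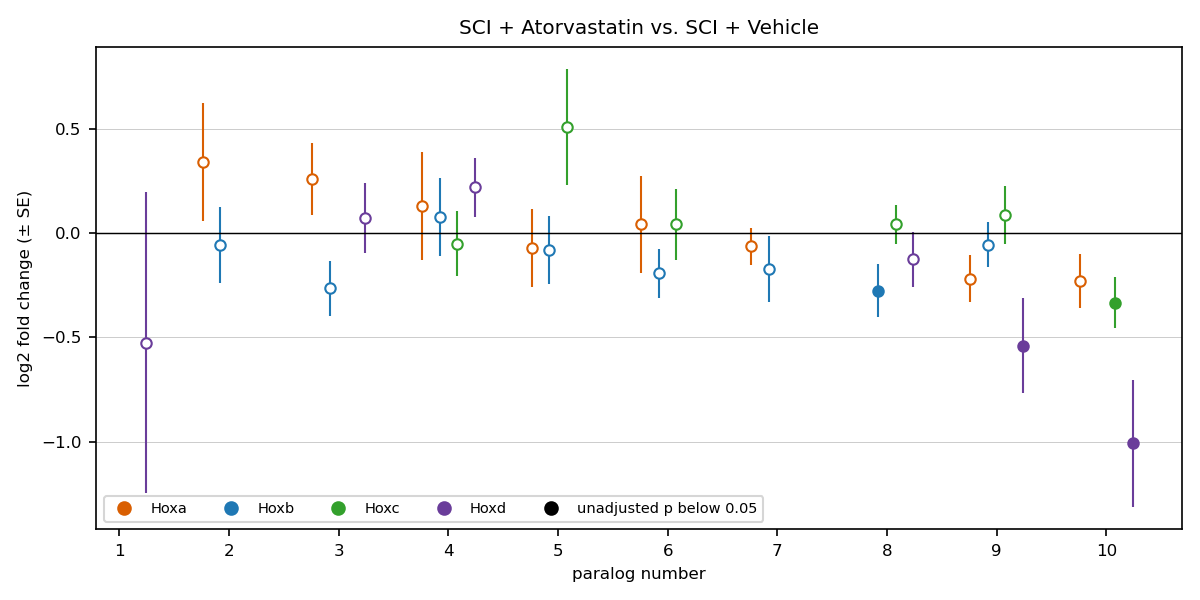
Log2 fold change (± SE) of SCI + Atorvastatin vs. SCI + Vehicle for Hox genes of paralogs 1 to 10, coloured by cluster, with filled points for an unadjusted p below 0.05. Filled points are Hoxb8 (-0.28), Hoxd9 (-0.54), Hoxc10 (-0.33) and Hoxd10 (-1.01), and none was called.

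Whether paralog 10 genes on different chromosomes rise and fall together from cord to cord was asked over the 14 SCI mice, as 4 relations of log2 CPM. Hoxa10 and Hoxc10 had r = 0.780 (permutation p = 0.00245, adjusted p = 0.00980) and rho = 0.538 (permutation p = 0.05004, adjusted p = 0.128). The relation rested on the 2 mice farthest from the median of Hoxa10, without which r was 0.303 (permutation p = 0.336). It also lost its adjusted p without SCI + Atorvastatin replicate 2 (r = 0.685) or SCI + Vehicle replicate 7 (r = 0.616). Within SCI + Atorvastatin r was 0.765 (exact permutation p = 0.00833) and within SCI + Vehicle 0.653 (exact permutation p = 0.105), over 7 mice each. Hoxc10 and Hoxd10 had r = 0.527 (permutation p = 0.0531) and rho = 0.512 (p = 0.0639), with r = 0.224 without the 2 farthest mice and r = 0.652 (adjusted permutation p = 0.0298) without SCI + Vehicle replicate 1. Within SCI + Atorvastatin its r was 0.591 (exact permutation p = 0.0825) and within SCI + Vehicle 0.0699 (exact permutation p = 0.891). Hoxa10 and Hoxd10 had r = 0.338 (permutation p = 0.239) and rho = 0.323 (p = 0.259), with r = -0.09 without the 2 farthest mice. The neighbours Hoxc9 and Hoxc10 had r = 0.229 (permutation p = 0.433) and rho = 0.0549 (p = 0.854), with r = 0.284 without them. For these neighbours r was 0.109 within SCI + Atorvastatin (exact permutation p = 0.889) and 0.675 within SCI + Vehicle (exact permutation p = 0.104). Over all 14 mice and adjusted over the 4 relations, the p of r was 0.106, 0.318 and 0.433 for the last 3 relations.

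The partners of Hox proteins were measured too. Of 9 cofactor genes of the Pbx, Meis and Pknox families none was called lower in either SCI group against control, and none was called between treatments. Meis1 was called higher in both SCI groups. Meis1 was at 20.0 and 13.4 CPM in controls and 29.3 to 46.6 CPM in SCI mice (log2 fold change 1.08, adjusted p = 0.00853, and 1.19, adjusted p = 0.00103 by edgeR). The list's median was 0.19 with vehicle and 0.34 with atorvastatin, beside 0.17 and 0.21 over all genes.

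Of the regulators of axial position and cluster neighbours (Cdx1, Cdx2, Cdx4, Gdf11, Evx1 and Evx2), only Gdf11 was expressed enough to test, and it was not called in any comparison (0.06 and 0.13 against control). Cdx1, Cdx2 and Cdx4, which switch on trunk and tail Hox genes in the embryo, stayed at or below 0.504 CPM in every mouse. Of 18 noncoding genes of the Hox clusters 16 were in the files and 6 were tested. Only 1 was called, Hoxd3os1, higher with vehicle and with atorvastatin, where 19.9% and 24.9% of all genes were. It was at 0 in both controls and at 1.36 to 7.503 CPM in SCI mice, so like Hoxd1 it could only be called higher. The controls were at 0 in many genes of middle abundance. Of 10 motor column genes 9 were tested. Slc18a3, the vesicular acetylcholine transporter, was lower in both SCI groups (-1.44, adjusted p = 0.00438, and -1.57, adjusted p = 0.00236 by edgeR), and Chat, which makes acetylcholine, was lower with atorvastatin (-1.34, adjusted p = 0.00501) but missed the limit with vehicle (-1.04, adjusted p = 0.0573). Foxp1, a gene of limb-level motor neurons that is also used by other cells, was not called.

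Cell type markers moved along with the Hox genes against control, and their part in the Hox results was not tested. In bulk tissue fewer cells of a type and less RNA per cell cannot be told apart. The 6 neuron markers summed to 8657 and 9679 CPM in controls, 4740 to 7746 CPM with vehicle and 4525 to 5798 CPM with atorvastatin. In both SCI groups 5 of the 6 were called lower, where 9.91% (vehicle) and 14% (atorvastatin) of all genes were. The 5 microglia or macrophage markers summed to 170 and 201 CPM in controls and 1286 to 2023 CPM in SCI mice. Of them 4 were called higher in both SCI groups, where 19.9% (vehicle) and 24.9% (atorvastatin) of all genes were. Fibroblast markers ran from 164 to 1009 CPM with vehicle and 575 to 1598 CPM with atorvastatin, against 272 and 252 CPM in controls. Of the 5 fibroblast markers, 4 were called higher with atorvastatin and 0 with vehicle. Astrocyte and oligodendrocyte marker sums of SCI mice overlapped those of the controls, at 4833 to 5890 against 4600 and 5311 CPM and 12299 to 18068 against 13383 and 17381 CPM. Within these lists Aqp4 and Slc1a3 were called higher and Mog lower in both SCI groups, and Mbp and Mobp lower with atorvastatin. Of 5 dorsal root ganglion markers 3 were tested, and in both SCI groups Prph was called lower and Avil higher. Avil was at 0 in both controls, so like Hoxd1 it could only be called higher. SCI + Vehicle replicate 7, the mouse with the highest Hoxa10 and Hoxc10 of the SCI mice, also had their highest neuron sum (7746 CPM) and the lowest fibroblast sum (164 CPM), and SCI + Atorvastatin replicate 2, the lowest in Hoxa10 and Hoxc10, had the lowest neuron sum (4525 CPM) and the highest fibroblast sum (1598 CPM). Not all SCI mice kept this order. SCI + Vehicle replicate 6 had 61.7 CPM of Hoxc10 with a neuron sum of 4740 CPM, and replicate 3 had 51.4 CPM with 6050 CPM. Of 6 kidney markers, listed because kidney also uses Hox genes of high number, Umod was at 0 in every mouse and Kap reached 0.0840 CPM, and the sum of all 6 ran from 3.62 to 13.2 CPM in SCI mice and was 0 and 20.2 CPM in the controls. Most of it was Lrp2. Slc34a1 was at 3.57 CPM in SCI + Vehicle replicate 1, the mouse with the caudal Hox counts, and at most 0.452 CPM in any other, and its part in those counts was not tested.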

How the data were processed

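Per the labels, Trimmomatic 0.38, STAR 2.5.4b and RSEM 1.3.1 were used on the reads by the authors, with the mm10 build. They deposited whole-number counts per gene without normalization (the step that made them is not given in the sources used here) and TPM, scaled by the authors for gene length. Groups came from the labels. The 16091 genes that passed 1 TPM on average in any condition were tested with edgeR 4.0.16 in R 4.3.3 (TMM, quasi-likelihood test, each fit on its own 2 groups, p adjusted by Benjamini-Hochberg over all genes). DESeq2 1.42.0 and limma 3.58.1 were alternatives. CPM were scaled by TMM over the 16 libraries. Correlations used log2 CPM (prior count 2) and 100000 permutations, or all orders for 7 mice. The scripts were checked on simulated counts.

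Named were members of paralogs 8 to 11 that passed the filter, the highest member of each cluster, every member called, and, for the treatments, members with an unadjusted p below 0.05. Hoxa3, Hoxd3, Hoxc4, Hoxc5 and those at 0 in 1 control were named after their values were seen. The members, lists and tests were chosen with earlier results of these data known. Mice are the replicates, as the labels call them biological replicates. Gene positions and promoters are from RefSeq (GRCm38.p6). Protein sequences were not used here. Whether same-numbered mice pair was checked by correlating their deviations from group means (-0.15 to 0.0871 over 7 pairs), which did not pair them. No column lacked a sample. Python 3.11.15 with matplotlib 3.10.9 made the figures. Values of 1 member and 1 cofactor are not reported here, and neither is plotted by itself.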

Additional observations from a re-analysis of the deposited data

Results flagged for a closer look

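In 33 groups of 7 mice, 1 gene in 1 SCI group each, the highest or lowest mouse was compared with the rest by Dixon's test, and 5 stood apart, where chance gives about 1 in 20. SCI + Atorvastatin replicate 2 was low in Hoxb9, at 36.96 TPM against 50.99 to 60.94 TPM in the other 6 mice, and in Hoxc10, at 48.25 TPM against 68.61 to 78.58 TPM. This is the mouse with 2822 CPM of skeletal muscle markers, whose part in these values was not tested. SCI + Vehicle replicate 1 was high in Hoxa11, at 2.23 TPM against 0 in the others, in Hoxc11, at 1.83 TPM against 0, and in Hoxd11, at 0.29 TPM against at most 0.07 TPM. Groups mostly at 0 are set apart by any mouse with a value. Without SCI + Atorvastatin replicate 2 the Hoxc10 difference from control was -1.08 (adjusted p = 0.000887 by edgeR).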

How the results depend on the processing

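Of 589 values under alternatives, 477 kept their direction and side of the threshold, 74 lost and 4 gained it, 32 counts or shares moved and 2 reversed; causes were not tested. Hox genes called for SCI + Vehicle vs. Uninjured Control numbered 3 higher and 10 lower. Higher calls were 5 with DESeq2, 6 with all 3 groups in 1 fit, 0 with the replicate block and 0 with group-weighted voom, an alternative added after seeing the data. Lower calls were 4 when 1 TPM was asked of every condition, 2 with limma on log2(TPM + 1), 0 with the replicate block and 1 with voom. Leaving out each mouse gave 3 to 8 higher and 4 to 13 lower calls, with 8 higher without either control and 4 lower without SCI + Vehicle replicate 2 or 3. Calls over all genes moved too, from 3195 higher to 5399 and 5246 without control replicate 1 and 2 and 4045 with DESeq2. For SCI + Atorvastatin vs. Uninjured Control, 4 higher and 12 lower calls became 2 and 6 when 1 TPM was asked of every condition, 6 lower with limma on log2(TPM + 1), 0 and 0 with the replicate block, and 0 and 1 with voom. Leaving out each mouse gave 3 to 9 higher calls (8 and 9 without control replicate 1 and 2) and 8 to 14 lower. The numbers do not pair the mice, and with 2 controls the block leaves few mice to compare; over all genes it called 27 and 0. Between treatments, leaving out each mouse gave 0 to 1 lower calls, the 1 being Hoxd10 without SCI + Vehicle replicate 6. The log2 fold change of Hoxa10 with vehicle ranged from -1.66 to 0.0195 and reversed without control replicate 1. The share from paralogs 10 to 13 moved to 9.08% (atorvastatin) and 10.9% (vehicle) on counts and to 13.3% and 15.9% over paralogs 6 to 13. The correlation of Hoxa10 and Hoxc10 ranged from 0.616 to 0.871 with each mouse left out and lost its adjusted p within SCI + Vehicle (0.653). On log2(TPM + 1), Hoxa10 with Hoxd10 (0.664) and Hoxc10 with Hoxd10 (0.666) passed it, and within SCI + Vehicle Hoxa10 with Hoxd10 reversed (-0.12). With each mouse left out, Hoxc10 and Hoxd10 ranged from 0.376 to 0.652.

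The controls set the limits here: with 2 mice, many genes at 0 and TPM that depart from counts, a count of 0 in a control does not show absence, and differences from control that rest on 1 of them have no second mouse behind them.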
